A study of Mus musculus with 9 samples.

Results

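Nrf2 and its antioxidant enzymes were followed here as 37 mouse genes, picked by symbol for their known roles, out of 52306 named genes in the deposited expression table. Earlier results of these data were known when the genes were picked. All 37 were found, and each averaged 1 FPKM or more across the libraries, the level required for testing, which is therefore no result about them. The libraries came from 4T1 cells, a mouse mammary carcinoma line, collected on day 2. The first group received MK1775 (adavosertib), a drug that inhibits the kinase Wee1. A second group is labelled as having received small interfering RNA (siRNA) against Wee1, and the third is a negative control (NC), each with 3 libraries. The titles number the siRNA-labelled libraries without saying whether the numbers stand for replicates or for different siRNAs. The growth medium was the same in every group. The sources used here do not give the dose of MK1775, the siRNA sequences or any vehicle or transfection step of the controls, so an effect of such a step and an effect of the agent cannot be told apart. The study's title connects Wee1 targeting with sensitivity to ferroptosis, a form of cell death driven by iron and lipid peroxides, and its groups set each agent against NC.

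Nrf2, encoded by Nfe2l2, is a transcription factor held at low abundance by Keap1, which presents it for ubiquitination. Electrophiles and oxidants modify Keap1, Nrf2 then accumulates, pairs with a small Maf protein and binds antioxidant response elements in promoters and enhancers, while Bach1 competes for the same elements. Much of this control acts on the protein, so that the Nfe2l2 transcript is not a measure of Nrf2 activity. The enzymes downstream reduce quinones, peroxides and disulfides, conjugate glutathione to electrophiles, supply NADPH for these reductions and export the conjugates.

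The core of the element was searched in promoter windows of RefSeq (GRCm38.p6, 250 bases before to 50 bases after each annotated start) as TGACNNNGC on both strands. Other forms of the element and sites outside these windows were not searched, so a member without a match may still carry an element. The stretches below are shown because they mark which of the genes described here carry the core near a start. They are printed along the strand of the gene with the 9 matching bases in capitals and up to 20 bases on each side.
Maff: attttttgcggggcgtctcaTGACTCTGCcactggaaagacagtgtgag
Srxn1: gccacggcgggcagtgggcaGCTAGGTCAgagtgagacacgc
Mafg: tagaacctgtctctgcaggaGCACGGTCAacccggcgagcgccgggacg
Sod1: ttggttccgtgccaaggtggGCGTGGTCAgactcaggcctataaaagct
G6pdx: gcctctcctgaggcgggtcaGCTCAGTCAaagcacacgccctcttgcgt
Nfe2l2: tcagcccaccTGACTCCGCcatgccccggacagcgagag
Txnrd1: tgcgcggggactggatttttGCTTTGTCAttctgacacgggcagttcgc
Prdx1: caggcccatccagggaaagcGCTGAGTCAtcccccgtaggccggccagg

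In GRCm38.p6, the Maff stretch lies at chr15:79346489-79346537, that of Srxn1 at chr2:152105532-152105573, that of Sod1 at chr16:90220686-90220734, that of Txnrd1 at chr10:82859094-82859142 and that of Prdx1 at chr4:116685446-116685494, all on the plus strand. Those of Mafg at chr11:120633741-120633789, of G6pdx at chrX:74428909-74428957 and of Nfe2l2 at chr2:75704875-75704913 lie on the minus strand. In Maff the core began 112 bases before the annotated start of its window, and in Srxn1 28 bases after it. Maff has several annotated starts, and the windows were not matched to the transcripts that carry the FPKM. In GRCm39, ENSMUST00000229130 of Maff starts at 79230821 and was at 0.251 FPKM or less per library. ENSMUST00000096350 starts at 79231720 and was at 17.3 FPKM or more. The window and these starts are in different builds, and no coordinates were converted. Whether the core lies near the start of the transcript that carries most of the Maff FPKM was therefore not settled. Of the 34 members that matched a RefSeq promoter by symbol (not Prdx6, Abcc1 or Gsta4), 13 had the core in at least 1 window (38.2%), against 3781 of 27025 gene symbols in all (14.0%). Besides the 8 printed, these were Gstm5, Pgd, Mgst1, Me1 and Abcc4, the last with a match in each of its windows that made up 2 of the 14 matches. The matches of Prdx1 and Me1 overlap the AP-1 motif TGANTCA, which itself was present in 7 of the 49 member windows (14.3%) and in 7.81% of all windows. That motif also lay in the windows of Srxn1 (2 motifs) and Gstm5 (1 motif), outside their matches. Several of the 13 members with the core are textbook Nrf2 targets in part because the element was found in them. The share is thus a description of the members and no test was made of it. As set out below, 4 of the 13 were higher and 1 was lower in at least 1 comparison with NC, and 8 passed in neither. Over all 37 members, 18 passed in at least 1 of these comparisons, as did 47.7% of all genes tested.

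FPKM (fragments per kilobase of transcript, relative to all mapped fragments) is scaled to transcript length, so levels can be set side by side between genes. The summed FPKM of the members was 2176 to 2185 per MK1775 library, 2155 to 2223 per library labelled Wee1 siRNA and 2108 to 2347 per NC library. By their mean over the 9 libraries, 8 members were at 100 FPKM or more and 9 were under 10 FPKM. Sod1 stood at 285.3, Txn1 at 242.8 and Prdx1 at 235.3, and the single libraries of Txn1 and Prdx1 overlapped. Gstm1 was the lowest, at 2.69.

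**Figure D1:**
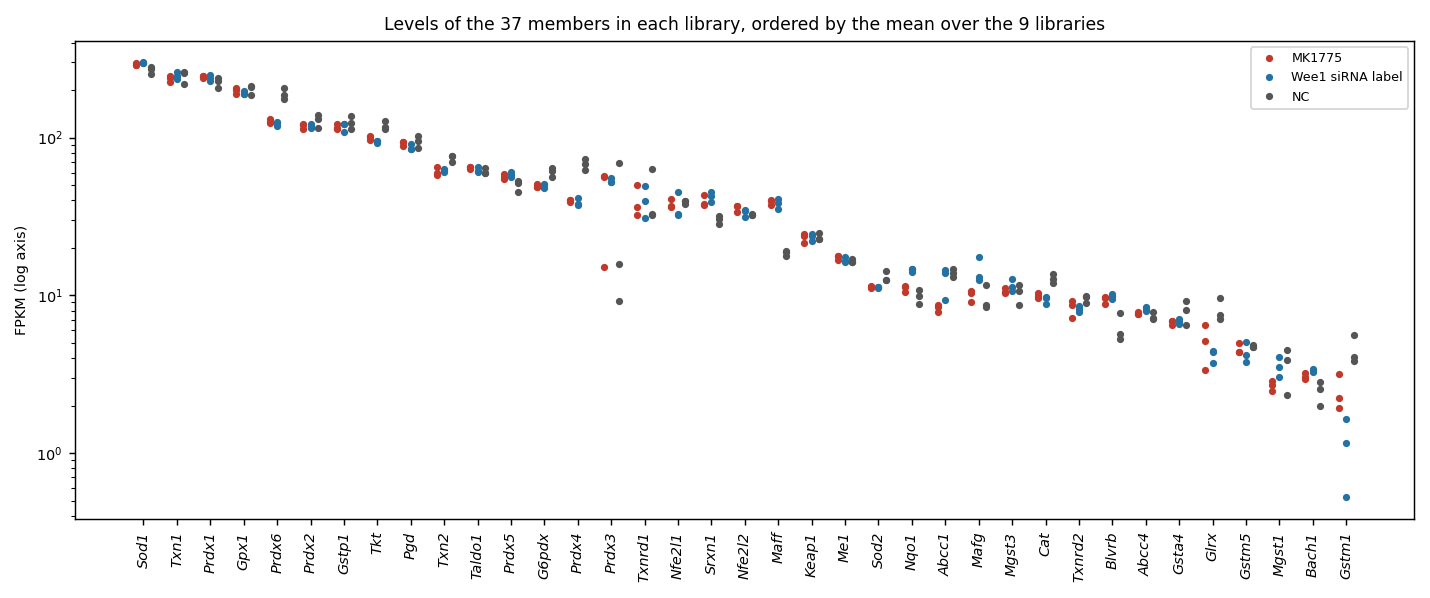
FPKM of the 37 members in each of the 9 libraries on a log axis, ordered by the mean over all libraries, with 1 point per library. Sod1, Txn1 and Prdx1 lead the order and Gstm1 closes it, and the points of Prdx3 and Txnrd1 spread far more within a group than those of their neighbours.

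The libraries as a whole held 10361 to 10415 named genes at 1 FPKM or more with MK1775, 10457 to 10783 with the siRNA label and 10017 to 10172 with NC. No read totals can be had from FPKM, so the depth of the libraries is unknown. Transcript of Wee1, the gene targeted by both agents, was at 14.7 to 16.8 FPKM with MK1775, 13.1 to 15.3 in the libraries labelled Wee1 siRNA and 10.5 to 11.5 with NC. On the log2 scale it was higher than NC by 0.46 with MK1775 (limma adjusted p = 0.00226) and by 0.37 with the siRNA label (limma adjusted p = 0.00633). The siRNA label was thus not matched by a lower Wee1 transcript, and the group is called by its label throughout. Of the epithelial markers, Krt8 and Krt18 were high in every library while Epcam and Krt14 stayed under 1 FPKM, and the 6 epithelial markers summed to 777 to 790 FPKM with MK1775, 721 to 724 with the siRNA label and 433 to 496 with NC. Krt8 and Krt18 made up most of that sum and were higher in both comparisons, whereas Krt7 was lower in both, at 13.9 ± 2.48 FPKM with MK1775, 14.0 ± 4.05 FPKM with the siRNA label and 24.4 ± 4.03 FPKM with NC (SD, n = 3 each; limma adjusted p = 0.0205 and 0.0188 for the comparisons with NC). Immune markers summed to 5.44 to 7.83, 6.78 to 8.75 and 8.72 to 10.1 FPKM in the same order of groups, with Cd3e and Adgre1 at 0 in every library, and stromal and blood markers summed to under 4 FPKM per library. The part of these marker shifts in the differences below was not tested, and in bulk RNA fewer cells expressing a gene and less RNA per cell cannot be told apart. Separate cultures are not stated for the replicates of a group, and the p-values below then reflect no more than the spread among these libraries, which may be technical. With the siRNA label, a spread between replicates and a spread between siRNAs cannot be told apart.

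With MK1775, 3 of the 37 members rose against NC (Maff, Blvrb and Srxn1) and 10 fell, among them the peroxiredoxins Prdx4 and Prdx6, catalase, mitochondrial thioredoxin and the pentose phosphate enzymes G6pdx and Tkt. Calls were made with limma on log2(FPKM + 1) at a Benjamini-Hochberg adjusted p under 0.05 over the 10453 genes tested. In that comparison 41.0% of all genes tested passed, 17.9% higher and 23.1% lower, against 35.1% of the members, 8.11% higher and 27.0% lower. The members were thus called about as often as genes at large, and their median difference of -0.04 equalled the -0.04 of all genes tested. The groups did not overlap for 17 members, where 54.0% of all genes did not overlap. How many members count as higher depends on the scaling of the libraries: after median-of-ratios scaling, which moved the median of all genes to 0.02, 8 were higher and 7 lower, with Nfe2l2, Bach1, Prdx1, Prdx5 and Sod1 added to the rises and Glrx, Sod2 and Gstm1 no longer called. With that scaling, 2202 of the 10453 genes tested were higher and 1945 lower. Without the second NC library, 5 members were higher, as were 1687 of all genes tested.

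In the libraries labelled Wee1 siRNA, 8 members rose against NC and 9 fell. The rises were Maff, Blvrb, Srxn1, Bach1, Mafg, Nqo1, Prdx5 and Sod1, and the falls were Txn2, Glrx, Prdx4, Prdx6, Cat, Sod2, Gstm1, G6pdx and Tkt. Here 42.8% of all genes tested passed, 19.6% higher and 23.2% lower, and 45.9% of the members passed, 21.6% higher and 24.3% lower. The median difference was -0.04 over the members and -0.01 over all genes, and the groups did not overlap for 19 members, with 52.2% of all genes doing the same. Without the third siRNA-labelled library, 5 members were higher, as were 1759 of all genes tested. Both comparisons use the same NC libraries, so their lists are not independent of each other. Of the 37, 3 were higher in both and 9 lower in both, Abcc1 was lower with MK1775 alone, 5 were higher with the siRNA label alone, and 19 passed in neither. Whether the 2 treated groups differ is answered by the direct comparison, given after the single genes.

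**Figure D2:**
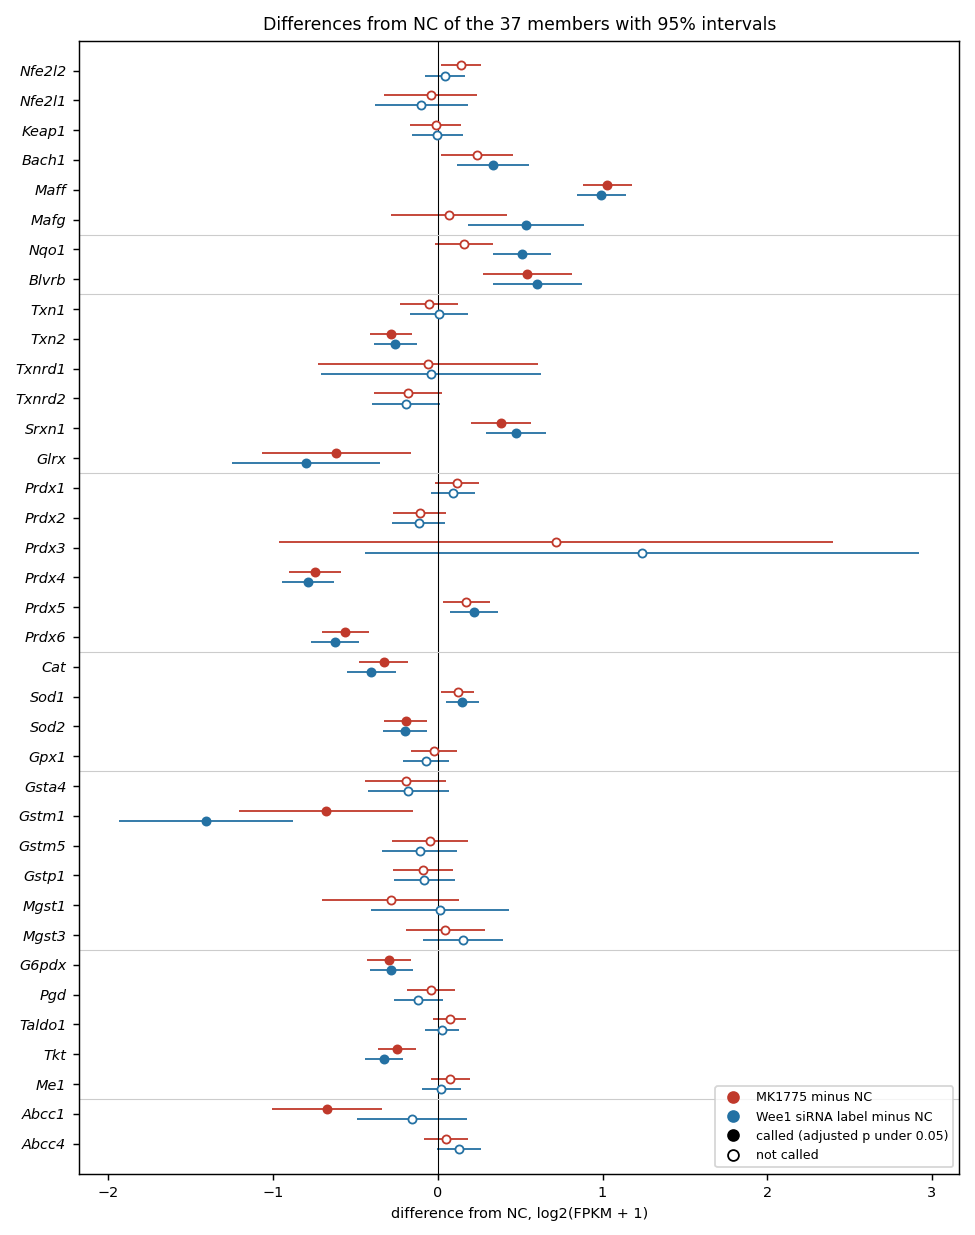
Difference from NC on the log2(FPKM + 1) scale for the 37 members, grouped by role, with 95% intervals from limma for MK1775 and for the siRNA label. Filled points passed the adjusted threshold, and Maff lies farthest to the right among them in both comparisons, at 1.03 and 0.99.

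Among the 6 regulators, Maff rose most. Maff, on chr15:79230821-79243276 (GRCm39), encodes a small Maf protein that pairs with Nrf2 on DNA and can also form pairs without an activation domain. It was at 37.2, 39.6 and 40.3 FPKM with MK1775, at 40.7, 38.3 and 35.1 FPKM with the siRNA label and at 17.8, 19.2 and 18.8 FPKM with NC. Every treated library lay far above every NC library, with no overlap. The ratio of means over NC was 2.10 for MK1775 (log2 difference 1.03, SE 0.064, limma adjusted p = 1.42e-05) and 2.05 for the siRNA label (0.99, SE 0.064, limma adjusted p = 1.69e-05). Under the alternatives the Maff difference ran between 1.00 and 1.095 with MK1775 and between 0.94 and 1.06 with the siRNA label.

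Mafg, another small Maf gene, was at 10.6, 9.06 and 10.4 FPKM with MK1775, at 12.5, 13.0 and 17.5 FPKM with the siRNA label and at 8.68, 8.44 and 11.6 FPKM with NC. The siRNA-labelled libraries were all above NC, with the third of them highest, whereas the MK1775 libraries lay among those of NC. The difference was 0.54 with the siRNA label (SE 0.15, limma adjusted p = 0.0228) and 0.07 with MK1775 (limma adjusted p = 0.769). The call for Mafg with the siRNA label ended without NC 1 (0.48), without NC 2 (0.46) or without siRNA-labelled library 3 (0.39). Transcripts without a gene name at the same locus held 55.5% of its FPKM with MK1775, 38.5% with the siRNA label and 34.0% with NC. That locus also holds other named genes, so those values could not be assigned to Mafg.

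Bach1, the repressor that competes with Nrf2 for the element, was low: 3.02, 3.20 and 2.93 FPKM with MK1775, 3.31, 3.41 and 3.26 FPKM with the siRNA label and 2.80, 2.00 and 2.53 FPKM with NC. All 6 treated libraries were above the NC libraries. The difference passed with the siRNA label (0.34, SE 0.095, limma adjusted p = 0.0217) and not with MK1775 (0.24, 95% interval 0.02 to 0.46, limma adjusted p = 0.0766). Leaving out a single library turned either call, since Bach1 lost it for the siRNA label without siRNA-labelled library 2 (0.32) and gained it for MK1775 without NC 1 (0.32).

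Neither Nrf2's own gene nor that of its anchor passed by named transcripts. Nfe2l2 averaged 35.8 ± 1.74 FPKM with MK1775, 33.4 ± 1.69 FPKM with the siRNA label and 32.4 ± 0.218 FPKM with NC (SD, n = 3 each), differences of 0.14 (limma adjusted p = 0.0672) and 0.04 (limma adjusted p = 0.559). Without MK1775 library 3 the Nfe2l2 difference with MK1775 passed, at 0.18. Keap1 averaged 23.2 ± 1.59, 23.4 ± 1.13 and 23.5 ± 1.29 FPKM in MK1775, siRNA-labelled and NC libraries, with 95% intervals for its differences of -0.17 to 0.14 and -0.16 to 0.15. Nfe2l1, which encodes the related factor Nrf1, averaged 37.9 ± 2.32, 36.8 ± 7.52 and 39.02 ± 0.986 FPKM and passed in neither comparison. Without siRNA-labelled library 3 its difference for that label was -0.26 and passed. Both Nfe2l1 and Nfe2l2 read differently once unnamed transcripts are added, as given further on.

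Both members that reduce quinones and heme breakdown products rose in at least 1 comparison. Nqo1, NAD(P)H quinone dehydrogenase, a classical Nrf2 target on chr8:108114857-108129838 (GRCm39), was at 11.4, 11.3 and 10.5 FPKM with MK1775, at 14.6, 14.7 and 14.0 FPKM with the siRNA label and at 8.76, 10.8 and 9.90 FPKM with NC. The siRNA-labelled libraries stood above all others, and the MK1775 libraries overlapped those of NC. The Nqo1 difference was 0.51 with the siRNA label (SE 0.076, limma adjusted p = 0.00105) and 0.16 with MK1775 (95% interval -0.02 to 0.34, limma adjusted p = 0.133), and without NC 2 the difference with MK1775 was 0.23 and passed.

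Blvrb, biliverdin reductase B, was at 9.68, 8.75 and 9.76 FPKM with MK1775, at 9.88, 10.2 and 9.47 FPKM with the siRNA label and at 5.66, 7.67 and 5.27 FPKM with NC. No treated library overlapped an NC library, though the second NC library came closest. Blvrb rose by 0.54 with MK1775 (SE 0.12, limma adjusted p = 0.00703) and by 0.60 with the siRNA label (SE 0.12, limma adjusted p = 0.00403), and both calls held under every alternative tried.

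Of the 6 thioredoxin, glutaredoxin and sulfiredoxin genes, 1 rose and 2 fell in each comparison. Srxn1, sulfiredoxin, which repairs over-oxidised peroxiredoxins, was at 37.5, 43.5 and 37.9 FPKM with MK1775, at 45.3, 42.4 and 39.1 FPKM with the siRNA label and at 28.1, 31.6 and 30.5 FPKM with NC. All treated libraries were above all NC libraries. The rise was 0.38 with MK1775 (SE 0.079, limma adjusted p = 0.00557) and 0.47 with the siRNA label (SE 0.079, limma adjusted p = 0.00184).

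The annotated transcripts that carried Srxn1 differed between libraries of each treated group, whereas ENSMUST00000041500 carried most of it in every NC library. ENSMUST00000041500 was at 36.6, 6.93 and 37.0 FPKM with MK1775, at 7.59, 6.50 and 26.2 FPKM with the siRNA label and at 26.9, 31.0 and 29.6 FPKM with NC. ENSMUST00000128882 was at 0.159, 35.9 and 0.147 FPKM with MK1775, at 36.9, 35.7 and 10.3 FPKM with the siRNA label and at 0.0135, 0.377 and 0.0163 FPKM with NC. Both have 2 exons and share their end, so their reads can be split between them in more than a single way. Srxn1 counted by its most abundant transcript alone gave -0.42 with MK1775 and -1.32 with the siRNA label, neither passing, where the sum over transcripts rose.

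**Figure D3:**
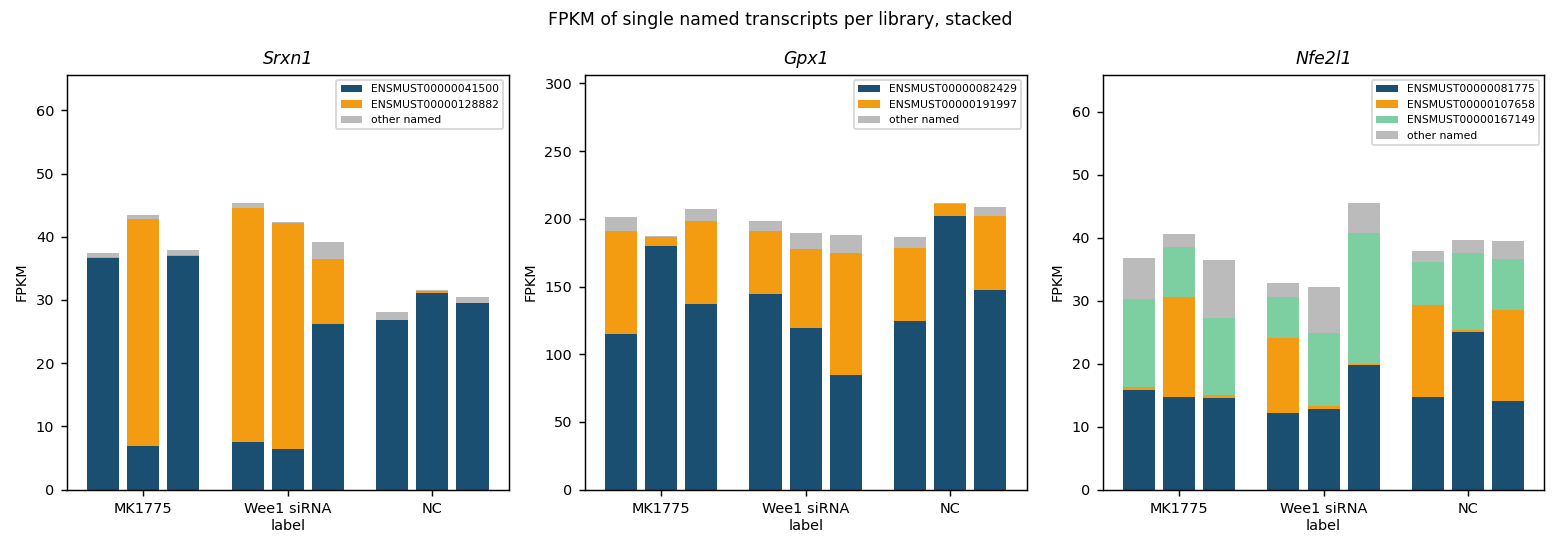
FPKM of single annotated transcripts of Srxn1, Gpx1 and Nfe2l1 in each library, stacked. The transcript that carries Srxn1 changes between libraries of each treated group, but not of NC, while the total changes far less (37.5 to 43.5 FPKM with MK1775). Gpx1 and Nfe2l1 show exchanges in NC as well.

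Txn2, mitochondrial thioredoxin, was at 57.7, 59.9 and 64.5 FPKM with MK1775, at 63.5, 60.2 and 61.8 FPKM with the siRNA label and at 69.9, 76.7 and 76.0 FPKM with NC. It was lower in every treated library, by -0.28 with MK1775 (SE 0.056, limma adjusted p = 0.00433) and -0.26 with the siRNA label (SE 0.056, limma adjusted p = 0.00676). Its cytosolic counterpart Txn1 averaged 236 ± 11.3, 247 ± 13.4 and 246 ± 23.0 FPKM in MK1775, siRNA-labelled and NC libraries, and its intervals ran between -0.23 and 0.18 over both comparisons. Txn1, Prdx1, Prdx2 and Gpx1 have processed copies elsewhere in the genome, so their values depend on how shared reads were assigned.

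Glrx, a glutaredoxin that removes glutathione from proteins, was at 3.36, 5.17 and 6.52 FPKM with MK1775, at 4.34, 3.75 and 4.44 FPKM with the siRNA label and at 9.64, 7.51 and 7.05 FPKM with NC. Every treated library was below every NC library. Glrx fell by 0.62 with MK1775 (SE 0.20, limma adjusted p = 0.0361) and by 0.80 with the siRNA label (SE 0.20, limma adjusted p = 0.0117). With MK1775 the call ended under 13 of 22 alternatives, including omission of NC 1 (-0.50), NC 2 (-0.66), NC 3 (-0.70), MK1775 library 1 (-0.40), MK1775 library 2 (-0.65) or siRNA-labelled library 1 (-0.62). With the unnamed transcripts of its locus added, Glrx was at 11.6, 10.6 and 11.3 FPKM with MK1775, at 10.4, 11.6 and 10.1 FPKM with the siRNA label and at 18.6, 19.8 and 20.6 FPKM with NC. The differences were then -0.77 (limma adjusted p = 1.47e-05) and -0.82 (limma adjusted p = 9.34e-06), with a smaller spread between replicates.

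The thioredoxin reductases passed in neither comparison by their named transcripts. Txnrd1, the cytosolic enzyme, spread widely, with 32.4, 36.5 and 49.7 FPKM with MK1775, 49.5, 31.1 and 39.9 FPKM with the siRNA label and 32.9, 63.2 and 32.2 FPKM with NC. Txnrd2, the mitochondrial enzyme, averaged 8.33 ± 1.03, 8.20 ± 0.362 and 9.53 ± 0.544 FPKM in MK1775, siRNA-labelled and NC libraries, differences of -0.18 and -0.19.

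The 6 peroxiredoxins, thiol enzymes that reduce hydrogen peroxide and organic peroxides, differed among themselves: Prdx4 and Prdx6 fell in both comparisons, Prdx5 rose with the siRNA label, and the other 3 passed in neither. Prdx4, the peroxiredoxin of the endoplasmic reticulum, on chrX:154106914-154123750 (GRCm39), was at 39.1, 40.3 and 40.2 FPKM with MK1775, at 37.1, 41.2 and 37.9 FPKM with the siRNA label and at 61.9, 73.5 and 68.0 FPKM with NC. The treated libraries lay close together and well below NC. Prdx4 fell to 0.588 times the NC mean with MK1775 (-0.75, SE 0.068, limma adjusted p = 9.37e-05) and to 0.572 times with the siRNA label (-0.79, SE 0.068, limma adjusted p = 7.21e-05).

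Prdx6, a peroxiredoxin with a single active cysteine that also acts on phospholipid peroxides, lies on chr1:161067682-161078789 (GRCm39). It was at 123, 127 and 132 FPKM with MK1775, at 125, 118 and 123 FPKM with the siRNA label and at 175, 206 and 186 FPKM with NC. Again no treated library reached the lowest NC library. The fall was -0.56 with MK1775 (SE 0.062, limma adjusted p = 0.000246) and -0.62 with the siRNA label (SE 0.062, limma adjusted p = 0.000143).

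Prdx5, found in mitochondria, peroxisomes and cytosol, was at 54.6, 56.2 and 58.4 FPKM with MK1775, at 58.0, 56.3 and 60.3 FPKM with the siRNA label and at 45.5, 52.7 and 51.7 FPKM with NC. The groups did not overlap, and the difference passed with the siRNA label (0.22, SE 0.062, limma adjusted p = 0.0224) but not with MK1775 (0.17, limma adjusted p = 0.0562). Prdx5 lost its call for the siRNA label without siRNA-labelled library 1 (0.22) or 3 (0.19), and gained one for MK1775 without NC 2 (0.21). Prdx1 averaged 243 ± 5.45, 238 ± 9.31 and 224 ± 16.6 FPKM and Prdx2 118 ± 4.30, 118 ± 3.67 and 128 ± 12.5 FPKM in MK1775, siRNA-labelled and NC libraries, and neither passed. Without NC 1, Prdx2 passed as lower in both comparisons, at -0.19 each.

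Prdx3, the mitochondrial peroxiredoxin, had a single named transcript, at 56.2, 56.8 and 15.2 FPKM with MK1775, at 55.3, 52.3 and 51.9 FPKM with the siRNA label and at 9.22, 15.9 and 68.9 FPKM with NC. Low and high libraries occurred together within the MK1775 and NC groups, and the differences of 0.72 and 1.24 (SE 0.73) did not pass. Without NC 3, Prdx3 passed as higher with the siRNA label, at 2.04. Unnamed transcripts at the locus were high in the libraries where the named transcript was low: 0, 0 and 42.5 FPKM with MK1775, 0, 2.91 and 0 FPKM with the siRNA label and 62.5, 60.9 and 5.59 FPKM with NC. Summed over the locus, Prdx3 was at 56.2, 56.8 and 57.7 FPKM with MK1775, at 55.3, 55.2 and 51.9 FPKM with the siRNA label and at 71.7, 76.8 and 74.5 FPKM with NC. By that sum the treated libraries were all below NC, with differences of -0.38 (limma adjusted p = 6.95e-05) and -0.45 (limma adjusted p = 2.32e-05), opposite in sign to those of the named transcript.

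With unnamed transcripts added, the 6 peroxiredoxins together summed to 642.2 ± 2.32 FPKM with MK1775, 630.0 ± 15.4 FPKM with the siRNA label and 735.9 ± 55.6 FPKM with NC. By named transcripts alone the sums were 627.9 ± 22.4, 628.4 ± 16.0 and 690.3 ± 69.5 FPKM in the same order.

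**Figure D4:**
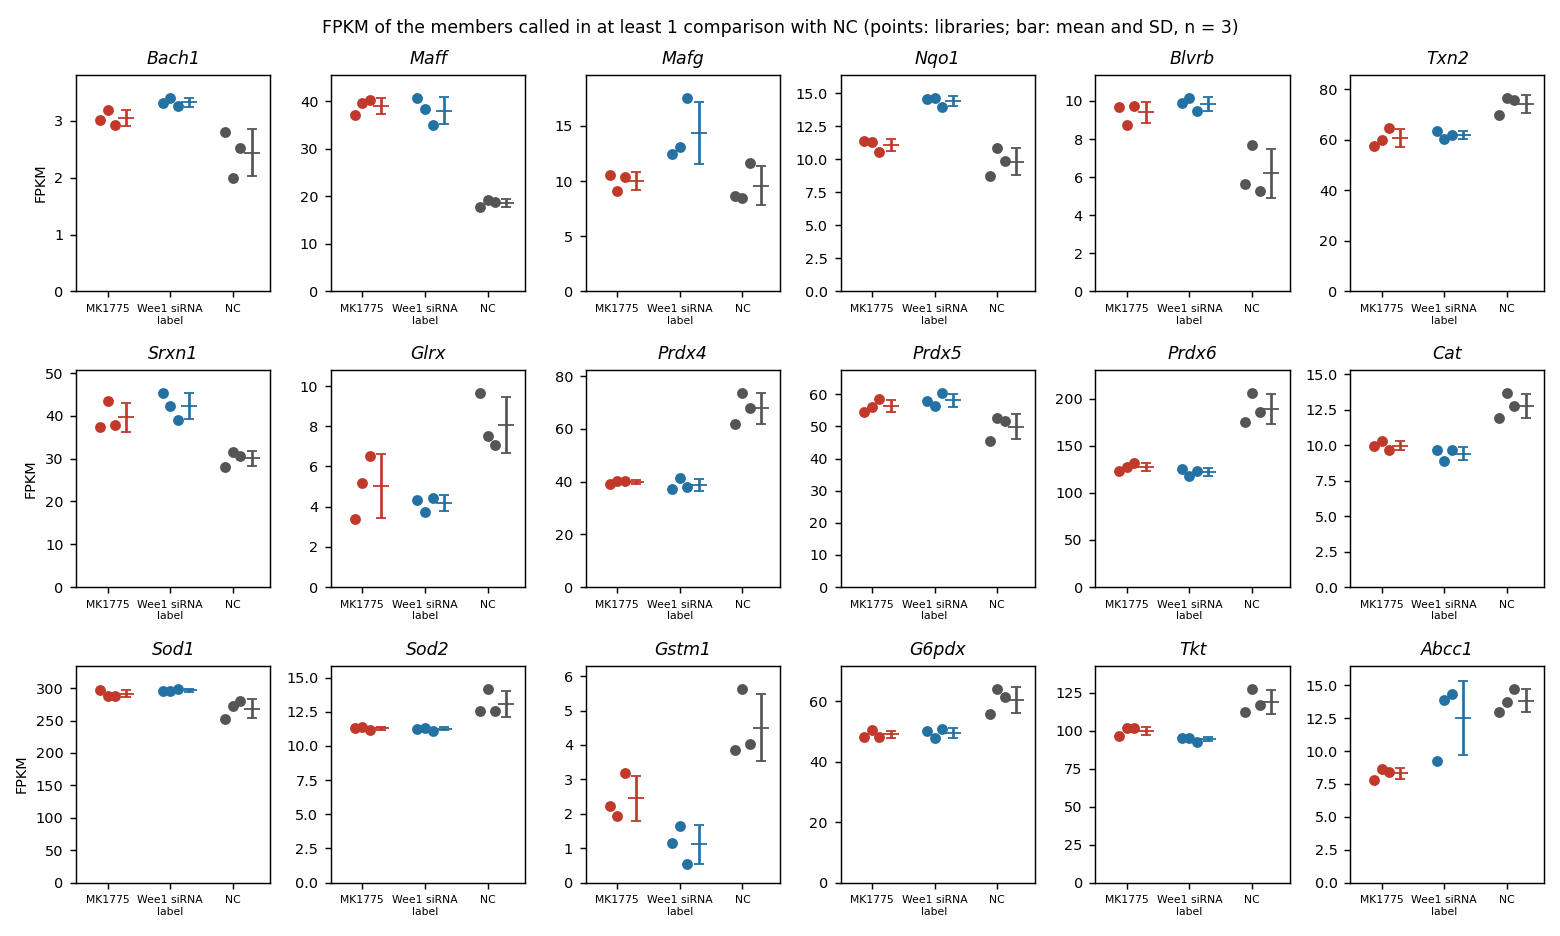
FPKM in each library of the 18 members that passed in at least 1 comparison with NC, with mean and SD beside the points. Prdx4, Prdx6, Cat, G6pdx and Tkt are lower in all 6 treated libraries than in any NC library, and Maff, Blvrb and Srxn1 are higher.

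Catalase and mitochondrial superoxide dismutase fell in both comparisons, and cytosolic superoxide dismutase rose slightly with the siRNA label. Cat, the peroxisomal enzyme that breaks down hydrogen peroxide, was at 9.93, 10.3 and 9.64 FPKM with MK1775, at 9.64, 8.86 and 9.68 FPKM with the siRNA label and at 11.9, 13.6 and 12.7 FPKM with NC. All treated libraries were lower, by -0.33 with MK1775 (SE 0.065, limma adjusted p = 0.00462) and by -0.40 with the siRNA label (SE 0.065, limma adjusted p = 0.00158).

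Sod2, the manganese superoxide dismutase of mitochondria, was at 11.3, 11.4 and 11.1 FPKM with MK1775, at 11.3, 11.3 and 11.1 FPKM with the siRNA label and at 12.5, 14.2 and 12.6 FPKM with NC. The groups did not overlap, and the difference was -0.20 in both comparisons (SE 0.058, limma adjusted p = 0.0266 with MK1775 and 0.0232 with the siRNA label). For Sod2 the call with MK1775 ended without NC 2 (-0.14) and without MK1775 library 1 (-0.20), 2 (-0.20) or 3 (-0.19), and that with the siRNA label without siRNA-labelled library 1 (-0.20), 2 (-0.21) or 3 (-0.19). After median-of-ratios scaling neither passed (-0.14 and -0.16).

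Sod1, the copper and zinc enzyme of the cytosol and the most abundant member, was at 297, 288 and 288 FPKM with MK1775, at 295, 296 and 299 FPKM with the siRNA label and at 252, 272 and 280.3 FPKM with NC. Every treated library exceeded every NC library by a small margin. The difference was 0.15 with the siRNA label (SE 0.044, limma adjusted p = 0.0264) and 0.12 with MK1775 (limma adjusted p = 0.0589). Sod1 lost its call for the siRNA label without siRNA-labelled library 1 (0.15), 2 (0.15) or 3 (0.14), and gained one for MK1775 without NC 3 (0.15). Gpx1, the cytosolic glutathione peroxidase, averaged 199 ± 10.1, 192 ± 5.68 and 202 ± 13.6 FPKM in MK1775, siRNA-labelled and NC libraries and passed in neither comparison.

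Of the 6 glutathione transferases, which conjugate glutathione to electrophiles, only Gstm1 was called by its named transcripts. Gstm1 was at 2.24, 1.93 and 3.18 FPKM with MK1775, at 1.16, 1.65 and 0.525 FPKM with the siRNA label and at 3.86, 5.63 and 4.04 FPKM with NC. The groups did not overlap, and differences were -0.68 with MK1775 (SE 0.23, limma adjusted p = 0.0452) and -1.41 with the siRNA label (SE 0.23, limma adjusted p = 0.00165). For MK1775 the call ended under 15 of 21 alternatives, among them omission of NC 1 (-0.76), NC 2 (-0.54), NC 3 (-0.74), MK1775 library 1 (-0.64), MK1775 library 2 (-0.57) or siRNA-labelled library 1 (-0.68). With unnamed transcripts of the locus added, Gstm1 was at 2.96, 3.46 and 3.79 FPKM with MK1775, at 4.27, 3.91 and 2.49 FPKM with the siRNA label and at 4.01, 5.63 and 4.04 FPKM with NC, and neither difference passed (-0.33 and -0.30). That sum follows a rule chosen after the data were seen, and the planned rule added nothing at Gstm1, whose locus also holds Gm12498. Genes of the mu class lie side by side and resemble each other in sequence, and those unnamed transcripts reach past the annotated span of Gstm1, so its value is uncertain in either form.

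The other glutathione transferases passed in neither comparison. Gstp1 averaged 117 ± 4.15, 117 ± 8.33 and 125 ± 12.5 FPKM in MK1775, siRNA-labelled and NC libraries, and Mgst3, a microsomal enzyme, 10.6 ± 0.431, 11.5 ± 1.05 and 10.3 ± 1.48 FPKM. Gstm5, Gsta4 and Mgst1 had group means of 2.68 to 7.94 FPKM. Without NC 1, Gsta4 passed as lower in both comparisons (-0.32 and -0.30), and without NC 2, Mgst1 passed as lower with MK1775 (-0.50). The Gstp1 locus has near-identical neighbouring copies in the mouse, so its counts may be shared between them.

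Of the 5 genes of NADPH supply and the pentose phosphate pathway, G6pdx and Tkt fell in both comparisons. G6pdx, glucose-6-phosphate dehydrogenase, which commits glucose to the pentose phosphate pathway, was at 48.3, 50.5 and 48.3 FPKM with MK1775, at 50.1, 47.7 and 50.7 FPKM with the siRNA label and at 55.8, 64.1 and 61.5 FPKM with NC. No treated library reached the NC range, and the difference was -0.30 with MK1775 (SE 0.057, limma adjusted p = 0.00392) and -0.28 with the siRNA label (SE 0.057, limma adjusted p = 0.00479). Tkt, transketolase of the non-oxidative branch, was at 96.7, 101 and 102 FPKM with MK1775, at 95.4, 95.2 and 92.8 FPKM with the siRNA label and at 113, 128 and 117 FPKM with NC. It too was lower in all treated libraries, by -0.25 (SE 0.051, limma adjusted p = 0.00534) and -0.33 (SE 0.051, limma adjusted p = 0.00128).

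The remaining enzymes of NADPH supply and the pentose phosphate pathway passed in neither comparison. Pgd, the next oxidative enzyme after G6pdx, averaged 91.6 ± 3.06, 86.9 ± 3.29 and 94.5 ± 7.93 FPKM in MK1775, siRNA-labelled and NC libraries. Taldo1, transaldolase, averaged 64.3 ± 0.844, 62.3 ± 2.15 and 61.2 ± 2.45 FPKM, and Me1, cytosolic malic enzyme, 17.4 ± 0.631, 16.7 ± 0.628 and 16.4 ± 0.480 FPKM. Without NC 1, Pgd passed as lower with the siRNA label (-0.18). Summed over the 4 pentose phosphate members, the level was 304.9 ± 5.93, 293.1 ± 6.78 and 335.2 ± 21.7 FPKM in the same order of groups.

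Both exporters of conjugates, Abcc1 and Abcc4, were expressed, and only Abcc1 was called, with MK1775 alone. Its named transcripts were at 7.81, 8.65 and 8.44 FPKM with MK1775, at 9.27, 13.9 and 14.4 FPKM with the siRNA label and at 13.0, 13.8 and 14.7 FPKM with NC. The MK1775 libraries and the first siRNA-labelled library were below NC, and the other siRNA-labelled libraries lay within its range. The difference was -0.67 with MK1775 (SE 0.15, limma adjusted p = 0.00700) and -0.16 with the siRNA label (limma adjusted p = 0.429). Unnamed transcripts at the locus held 53.3%, 34.1% and 19.3% of its FPKM in MK1775, siRNA-labelled and NC libraries. Summed over the locus, Abcc1 was at 16.8, 18.2 and 18.4 FPKM with MK1775, at 19.6, 18.3 and 19.0 FPKM with the siRNA label and at 16.5, 18.3 and 16.7 FPKM with NC. That sum overlapped between MK1775 and NC and gave 0.05 (SE 0.057, limma adjusted p = 0.494), so the call belongs to the named transcripts alone. Abcc4 averaged 7.68 ± 0.126, 8.16 ± 0.223 and 7.39 ± 0.430 FPKM and passed in neither comparison.

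Assembled transcripts without a gene name lie at the loci of 12 members, and they made up 12.1% to 12.6% of all FPKM per MK1775 library, 12.3% to 12.8% per siRNA-labelled library and 10.0% to 11.2% per NC library. Where a locus held exactly 1 named gene at 1 FPKM or more, adding them changed the reading of several members beyond those above. Txnrd1 then was at 49.8, 49.5 and 51.3 FPKM with MK1775, at 52.5, 50.8 and 51.7 FPKM with the siRNA label and at 58.3, 63.7 and 64.8 FPKM with NC. The wide spread of its named transcripts was gone, and both treated groups lay below NC, by -0.30 (limma adjusted p = 0.000481) and -0.26 (limma adjusted p = 0.00111).

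Nfe2l2 with its unnamed transcripts was at 38.9, 38.6 and 35.4 FPKM with MK1775, at 36.1, 36.4 and 36.3 FPKM with the siRNA label and at 32.2, 32.6 and 32.3 FPKM with NC. The added transcripts were nearly absent from NC, and the differences of 0.21 (limma adjusted p = 0.00323) and 0.16 (limma adjusted p = 0.0125) passed. Nfe2l1 was at 55.8, 49.7 and 57.2 FPKM, at 52.7, 55.6 and 50.1 FPKM and at 40.8, 42.8 and 43.5 FPKM in MK1775, siRNA-labelled and NC libraries. The Nfe2l1 sums did not overlap with NC either, at 0.35 (limma adjusted p = 0.00121) and 0.31 (limma adjusted p = 0.00223), whereas its named transcripts gave -0.04 and -0.10. This rise rests on a rule chosen after the data were seen. By the planned rule nothing was added at Nfe2l1, whose locus also holds Gm11517, and neither difference passed. Of the added transcripts, MSTRG.4227.1 and MSTRG.4227.2 begin at 96686061 and 96686151, well outside the annotated span of Nfe2l1 from 96708240, so its sum is uncertain. Txnrd2 stayed short of the threshold, at -0.29 and -0.31. Counted this way, 8 members were higher and 10 lower with MK1775, where 55.2% of all genes passed, and 10 were higher and 10 lower with the siRNA label, where 57.3% passed. Of the 10453 genes tested, 2626 were then higher and 3142 lower with MK1775, and 2926 were higher and 3067 lower with the siRNA label.

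**Figure D5:**
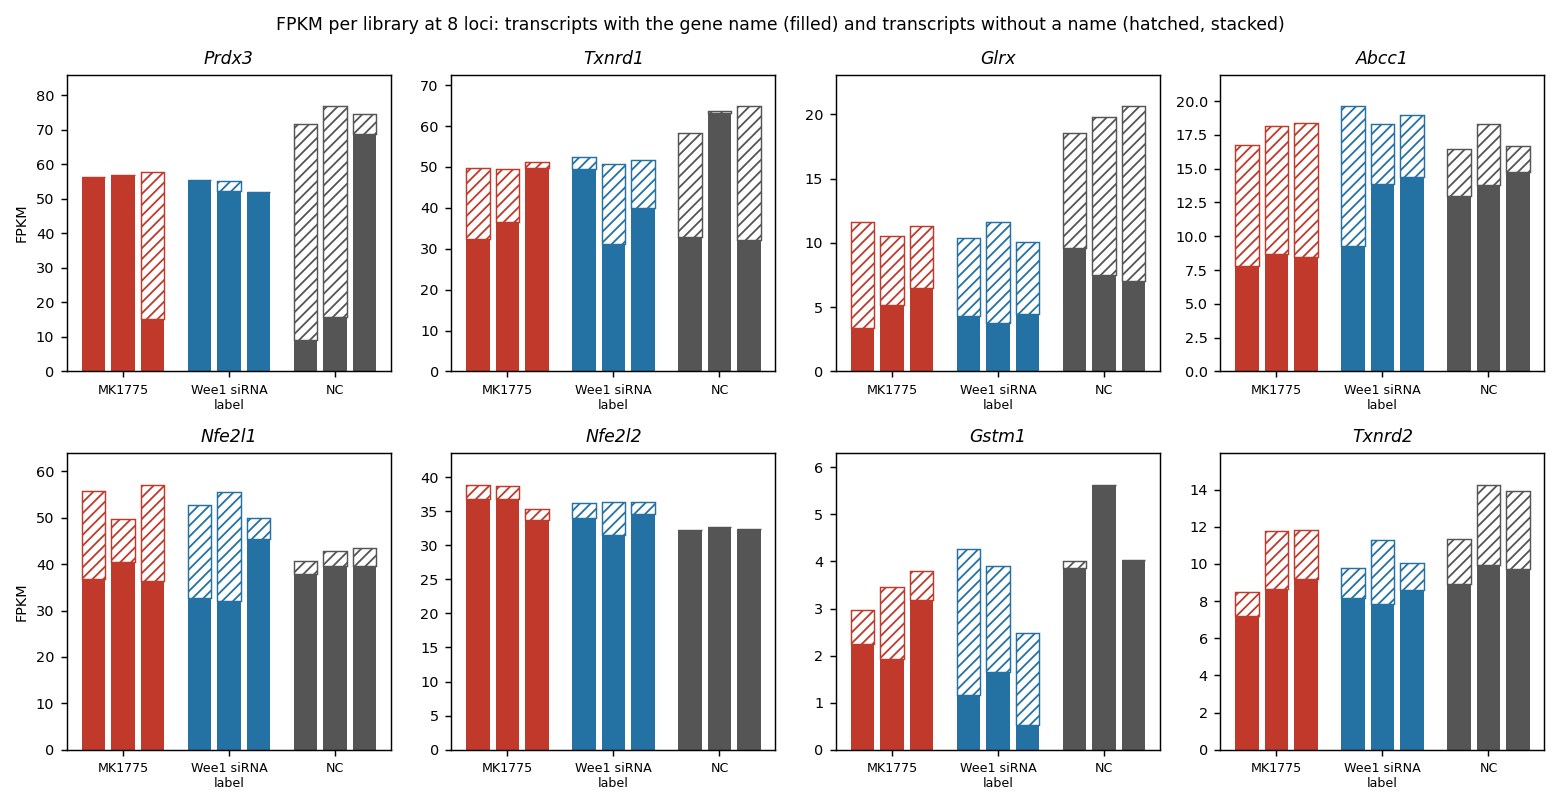
FPKM per library at 8 loci, with transcripts that carry the gene name filled and unnamed transcripts hatched on top. At Prdx3, Txnrd1 and Glrx the stacked totals are even within each group and lower in the treated libraries than in NC, while at Abcc1 the totals overlap (16.8 to 18.4 FPKM with MK1775 and 16.5 to 18.3 FPKM with NC).

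Set directly against each other, MK1775 and the libraries labelled Wee1 siRNA differed in none of the 37 members by limma's adjusted p, under the main settings and under each alternative. Of all genes tested, 1 passed (0.00957%), and 616 genes (5.89%) and 4 members had an unadjusted p under 0.05. The 4 were Nqo1 (-0.35, 95% interval -0.53 to -0.18, limma adjusted p = 0.515), Abcc1 (-0.52, -0.85 to -0.18, 0.644), Gstm1 (0.73, 0.20 to 1.26, 0.711) and Mafg (-0.47, -0.82 to -0.12, 0.712), with MK1775 minus the siRNA label as the direction. These values are of named transcripts. With unnamed transcripts added as above, Abcc1 gave -0.09 (limma adjusted p = 0.828) and Gstm1 -0.03 (limma adjusted p = 0.975). Those at the Mafg locus could not be assigned, and the Nqo1 locus had none. The MK1775 and siRNA-labelled libraries of Nqo1 did not overlap, with 10.5 to 11.4 FPKM against 14.0 to 14.7 FPKM, and the same held for 8 members in all, where 11.9% of all genes did not overlap. For 29 members the 95% interval of the difference stayed within 0.5 on the log2 scale in either direction. By named transcripts, the intervals of Prdx3 (-2.21 to 1.16) and Txnrd1 (-0.69 to 0.65) were too wide to say how alike the 2 groups were. With unnamed transcripts added as above, the 2 groups lay close together. The difference was then 0.07 for Prdx3 (SE 0.0425) and -0.04 for Txnrd1 (SE 0.0467), and neither passed.

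A further 103 genes of the same pathway were looked at as a list, of which 72 reached the level for testing. With MK1775, 10 of them were higher and 22 lower, or 44.4% called against 41.0% of all genes tested, of which 17.9% were higher and 23.1% lower. With the siRNA label 12 were higher and 24 lower, while 42.8% of all genes tested were called, 19.6% higher and 23.2% lower. The median log2 difference of the list was -0.11 with MK1775 and -0.08 with the siRNA label, and that of all genes tested was -0.04 and -0.01. Of the 9 tested genes that act on Nrf2 or bind with it, 4 were higher with MK1775 and 5 with the siRNA label, and none was lower. The 16 tested textbook Nrf2 targets went both ways, with 2 higher and 3 lower for MK1775 and 3 higher and 2 lower for the siRNA label. A further 14 tested genes were listed for NADPH supply and pentose phosphate metabolism, and not all of them yield NADPH. Of these, 1 was higher and 7 lower with MK1775, and 2 were higher and 9 lower with the siRNA label. Of 14 thiol genes, 3 were higher and 6 lower with MK1775, and 2 were higher and 7 lower with the siRNA label. Among the 8 further genes of glutathione and its transferases none was higher in either comparison, and 2 were lower with MK1775 and 3 with the siRNA label. None of the 6 genes of export and heme handling was higher either, and 3 were lower with MK1775 and 2 with the siRNA label. Of the 5 genes that act on peroxide or superoxide, 1 was lower in each comparison and none was higher.

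The listed genes with the smallest adjusted p were the same in both comparisons. Txnip, an inhibitor of thioredoxin, averaged 170.7 ± 2.23 FPKM with MK1775, 151.4 ± 7.31 FPKM with the siRNA label and 16.9 ± 0.669 FPKM with NC, differences of 3.26 and 3.09. Mthfd1, a folate enzyme that yields NADPH, was lower at 28.2 ± 0.514, 28.2 ± 1.05 and 64.9 ± 4.15 FPKM (-1.18 with each agent), as was Idh1, cytosolic isocitrate dehydrogenase, at 9.97 ± 0.626, 10.5 ± 0.251 and 18.5 ± 1.73 FPKM (-0.83 and -0.76). Glrx3, a glutaredoxin of iron handling, was lower too, at 51.6 ± 0.856, 49.9 ± 1.60 and 80.8 ± 5.78 FPKM (-0.64 and -0.68), with levels given for MK1775, the siRNA label and NC in that order.

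Chosen after their values were seen, 3 more listed genes are given because they adjoin the members. Sqstm1 (p62), which can displace Nrf2 from Keap1, averaged 303.2 ± 9.48 FPKM with MK1775, 253.7 ± 92.6 FPKM with the siRNA label and 116.7 ± 12.5 FPKM with NC, and rose by 1.38 (limma adjusted p = 0.0036) and 1.04 (limma adjusted p = 0.0127). These Sqstm1 values are of named transcripts alone, and the siRNA-labelled libraries spread far more than those of the other groups. Hmox1, heme oxygenase 1, which breaks down heme, averaged 11.3 ± 0.407, 12.4 ± 0.0411 and 7.60 ± 0.740 FPKM and rose by 0.52 and 0.64 (limma adjusted p = 0.000629 and 0.000211). Gsr, glutathione reductase, averaged 31.2 ± 1.54, 29.01 ± 1.90 and 39.6 ± 2.62 FPKM and was lower, by -0.34 and -0.44 (limma adjusted p = 0.00542 and 0.0014).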

How the data were processed

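RNA-seq libraries of 4T1 cells (3 MK1775, 3 labelled Wee1 siRNA, 3 NC) were analysed from a table in which the authors deposited FPKM for 158719 transcripts, 17991 of them without a gene name. Per the submitters' processing notes, FastQC, Trim Galore, HISAT2 and StringTie were used with GRCm39, and the sources used here give neither versions nor roles. Per the labels' protocols, total RNA went into NEBNext Ultra libraries. Strand is not stated, so reads of overlapping and antisense genes cannot be told apart. No counts were used: 20.6% to 22.4% of low values lay within 0.1 of a whole multiple of a step, where an even spread gives 20%, so reads could not be recovered.

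FPKM was summed per gene name, leaving out 19 names on more than 1 chromosome. The 10453 genes averaging 1 FPKM or more entered 1 limma fit (limma 3.58.1 in R 4.3.3; lmFit, contrasts.fit, eBayes with trend) of all 9 libraries on log2(FPKM + 1), a scale that understates changes of low genes. There was no covariate. P-values were two-sided and adjusted by Benjamini-Hochberg over all genes tested, with a threshold of 0.05. With 3 against 3, the smallest p of an exact permutation test is 0.1, so none was used. The fit was tested on simulated data. Mean ± SD is over 3 libraries.

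The members and lists were chosen with earlier results of these data known. Values of every library are given for each member called in a comparison with NC, means for the others. Of further pathway genes, the 4 with the smallest adjusted p per comparison are named. Same-numbered libraries of different groups did not deviate together (correlations of -0.12 to 0.043), so the numbers were not taken as pairs. Alternatives were pseudocounts of 0.1 and 0.01, no filter, a minimum mean of 5 FPKM, a common total, median-of-ratios scaling, quantile normalization, a replicate block, only the groups compared, eBayes without trend, the most abundant transcript, unnamed transcripts added (9599) where the locus holds exactly 1 named gene, and leaving out each library. A second rule for unnamed transcripts (9277 added, exactly 1 named gene at 1 FPKM or more), used for the sums in the text, was chosen after seeing the data. Gene coordinates are GRCm39, as deposited, and promoters are RefSeq GRCm38.p6; no coordinates were converted.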

Additional observations from a re-analysis of the deposited data

Results flagged for a closer look

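Single transcripts without a gene name, which the summed values leave out, are given here where they averaged 1 FPKM or more in a group whose 3 libraries all lay above every NC library, at loci with exactly 1 named gene at 1 FPKM or more. Means are over 3 libraries. At Nfe2l2, MSTRG.13449.1 averaged 1.434 FPKM with MK1775 and 2.704 FPKM with the siRNA label and was listed at 0 in all 3 NC libraries. At Nfe2l1, MSTRG.4227.11 averaged 6.675 FPKM with MK1775 and 7.87 FPKM with the siRNA label and stayed at or under 0.0651 FPKM in NC, although siRNA-labelled library 3 was at 0.0793 FPKM. At the same locus MSTRG.4227.2 averaged 2.893 FPKM with MK1775 and 4.106 FPKM with the siRNA label, against 0.0322 FPKM or less in NC, and MSTRG.4227.1 averaged 1.801 FPKM with MK1775 and was at 0 in NC. At Abcc1, MSTRG.9298.1 averaged 5.362 FPKM with MK1775 and had 0.682 to 3.09 FPKM in NC, and MSTRG.9298.2 averaged 4.109 FPKM with MK1775 and had 1.07 to 1.43 FPKM in NC. At Gstm1, MSTRG.15633.4 averaged 1.421 FPKM with the siRNA label and was at 0.16 FPKM or less in NC. The Mafg locus holds other named genes, and its transcripts without a gene name summed to 12.5, 15.0 and 9.92 FPKM with MK1775, 11.6, 10.8 and 4.48 FPKM with the siRNA label and 5.46, 5.61 and 3.76 FPKM with NC. These differences were not tested transcript by transcript.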

How the results depend on the processing

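Of the 13 members called for MK1775 minus NC, 8 kept their direction and call under all 22 alternatives (Maff, Blvrb, Txn2, Prdx4, Prdx6, Cat, G6pdx and Tkt), as did 10 of the 17 for the siRNA label (those 8 with Nqo1 and Glrx). The number of members higher with MK1775 was 7 with a common total, 8 with median-of-ratios scaling, 8 with quantile normalization, 7 with unnamed transcripts added, 8 by the second rule for them, and 3 to 5 when 1 library was left out. Of all genes tested, 2094, 2202, 1986, 2771 and 2626 were higher in those settings in that order, and 1572 to 1908 when 1 library was left out. The number of members higher with the siRNA label was 5 when only the groups compared were fitted and 5 to 9 when 1 library was left out. All genes higher then numbered 1833 and 1728 to 2013. Genes called between MK1775 and the siRNA label numbered 11 with no filter, 2 with the most abundant transcript, 0 with the replicate block and 0 to 3 when 1 library was left out. The block was also fitted against NC, without support for a pairing: 3881 genes with 3 members higher and 8 lower for MK1775, and 4079 genes with 7 higher and 9 lower for the siRNA label. Glrx and Gstm1 with MK1775 and Sod1 with the siRNA label were no longer called with it. Where the value as reported or the alternative passed the test, signs reversed for Nfe2l1 by the second rule (0.347 and 0.310), for Prdx3 with unnamed transcripts added by either rule (-0.379 and -0.450), for Abcc1 with MK1775 by either rule (0.050), and for Srxn1 by its most abundant transcript (-0.422 and -1.320). For Prdx3 and Abcc1 the added transcripts are those printed beside them, and for Srxn1 the exchange between transcripts; no further cause was tested. Depth is unknown, so low members such as Gstm1 and Bach1 have an unknown counting error.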
